A study of Mus musculus with 16 samples.

Results

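Erythropoietin receptor signalling was followed in mouse erythroid cells through 3 genes: Epor, the receptor itself, Jak2, the tyrosine kinase bound to its tail, and Cish, a feedback inhibitor of the receptor. They were taken by name, as all rows of these genes in the 2 expression tables and all peaks that name one of them as the nearest gene in the 2 peak lists. All 3 genes have a row among the 1556 genes of the nascent RNA table, and 1 of them, Cish, among the 793 genes of the fetal liver table. Of 2758 Nan-KLF1 peaks 1 names a member, and of 5326 KLF1 peaks 2 do.

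The study compared the erythroid transcription factor KLF1 with Nan-KLF1, a mutant with a changed DNA-binding zinc finger. K1 cells are erythroblasts that lack KLF1, and all cell lines here share that loss. K1-NanER cells carry Nan-KLF1 fused to the oestrogen receptor (ER) and K1-ER cells carry KLF1 fused to it, so that 4-hydroxytamoxifen switches the fusion on. Nascent RNA was labelled with 4-thiouridine (4sU, 500 uM, 1 h) and sequenced from 2 libraries of K1-NanER (clones B and X), 2 of K1-ER (clones A and C) and 2 of parental K1 cells, all given 200 nM of 4-hydroxytamoxifen per the labels. The header of the deposited K1 column, the reference of each fold change, does not name tamoxifen as the other columns do. Binding was measured by chromatin immunoprecipitation with a KLF1 antibody after 3 h of 4-hydroxytamoxifen, in 1 library per fusion made from 3 pooled replicates, with 1 input library each. The sample labels as used here give no such time for the 4sU libraries, so binding and nascent RNA may not be of the same time. Polyadenylated RNA came from 3 Nan/+ and 3 wild-type whole fetal livers of embryonic day 14.5, after removal of globin RNA. Levels are FPKM (fragments scaled to transcript length and to the number of mapped fragments), deposited as 1 value per group, so no spread between libraries stands beside a value and the depth of the libraries is unknown. A gene was called where the authors' q was at most 0.05. Klf1 itself was not analysed here.

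Erythropoietin holds red cell precursors alive and lets them divide. It pairs 2 receptor chains, which brings the attached JAK2 molecules together, and JAK2 then phosphorylates the receptor tail and the transcription factor STAT5. STAT5 enters the nucleus and switches on survival genes and also CISH, which docks on the receptor tail and damps the signal. The fetal liver is the main site of this signalling before birth.

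The 3 genes went different ways in the nascent RNA. Epor was raised in K1-ER and was close to its K1 level in K1-NanER. Jak2 was raised in K1-NanER and was not called in K1-ER. Cish was barely transcribed in any line and was called in K1-ER only, while in the Nan/+ fetal liver its RNA was 4.31 times the wild-type level in the authors' deposited table.

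**Figure D1:**
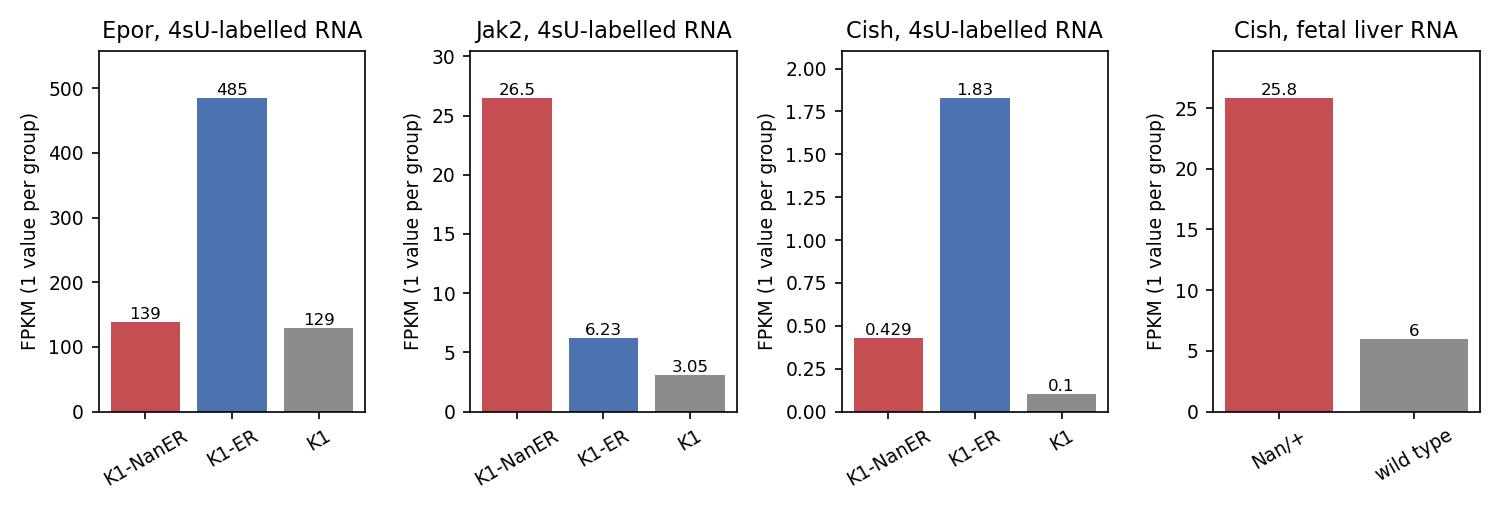
Levels (FPKM, 1 value per group, no error available) of Epor, Jak2 and Cish in 4sU-labelled RNA of K1-NanER, K1-ER and K1 cells, and of Cish in Nan/+ and wild-type fetal liver; each panel has its own axis. The tallest bar is K1-ER for Epor (485 FPKM) and Cish (1.83 FPKM), K1-NanER for Jak2 (26.5 FPKM) and Nan/+ for liver Cish (25.8 FPKM).

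Epor encodes the single-pass receptor that gives red cell precursors their response to erythropoietin. It lies on chromosome 9, 21763343 to 21768020 (mm9), on the minus strand per RefSeq. The authors' deposited table gave it 139 FPKM in K1-NanER, 485 FPKM in K1-ER, against 129 FPKM in K1. K1-ER stood apart, and the other lines lay within 1.08-fold of each other. In K1-ER the log2 fold change over K1 was 1.91, a 3.77-fold rise (q = 0.00213), per the authors' deposited table. The background is wide: in K1-ER 49.4% of the listed genes were called, 37.9% as higher and 11.5% as lower, because each gene of the 4sU table was called in K1-NanER, in K1-ER or in both. Against that background 2 of the 3 members, Epor and Cish, were called in K1-ER. In K1-NanER the log2 fold change of Epor was 0.11 (q = 0.912) in the authors' deposited table, and Epor was not called; without replicate values no interval can be given, so the size of change that could have been missed is not known. For K1-NanER 75.7% of listed genes were called, 47.4% higher and 28.3% lower, and Jak2 was the only member among them.

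Set directly against each other, Epor was at 0.287 of its K1-ER level in K1-NanER, a log2 ratio of -1.80, the 115th lowest of the 1556 listed genes; this ratio has no test, as the deposited tables compare each line with K1 alone. The median of that ratio over all listed genes was -0.26. The level of nascent Epor RNA was high in every line, at percentile 95.5 of listed genes in K1-NanER, 98.9 in K1-ER and 94.5 in K1.

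Both factors had a peak inside Epor. The Nan-KLF1 peak ran from 21766600 to 21767262 on chromosome 9 (mm9) with its summit at 21766964, and the KLF1 peak from 21766646 to 21767400 with its summit at 21767032. The authors class both as intronic, as they do 37.7% of all Nan-KLF1 and 36.6% of all KLF1 peaks. Measured from the upstream end of the locus in the 4sU table, the Nan-KLF1 summit lay 1056 bp and the KLF1 summit 988 bp into the gene. The fold enrichment over input, the authors' own value for each peak, was 117 for Nan-KLF1, a value that 45.5% of that list reached or exceeded, and 185 for KLF1, which 12.9% of its list reached or exceeded. Folds of different libraries are not on a shared scale, and with 1 library per factor there is no replicate check of either.

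Both peaks carry the same 8-base central motif in the authors' annotation, shown because it is the sequence they place under both factors at the receptor gene. The capitals mark the whole motif:
Epor intronic peak, Nan-KLF1 and KLF1: CCCCGCCC
This motif was the central one of 378 Nan-KLF1 peaks (13.7%) and 875 KLF1 peaks (16.4%). It is a GC-rich relative of the CACCC elements that KLF1 is known to bind. Over the whole series 1241 pairs of a Nan-KLF1 and a KLF1 peak shared at least 1 bp, and of the 907 pairs with a motif in both lists 63.3% had the same one.

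The authors' own intersection does not list the Epor peaks as shared, although they had 617 bp in common, 93.1% of the shorter peak. Their summits were 68 bp apart, and no pair in the authors' intersection is more than 50 bp apart. The Epor pair was 1 of 480 overlapping pairs (38.7%) with summits farther apart than that. The receptor gene thus had overlapping peaks of both factors, while its nascent RNA was called in K1-ER and not in K1-NanER.

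Within 50 kb of the Epor locus the KLF1 list held 3 further peaks and the Nan-KLF1 list none. These lay 10.8 kb from the locus at Swsap1, 30.8 kb at Tmem205 and 40.0 kb at Rab3d, the genes the authors name for them, and had fold enrichments of 87.3, 113 and 666. The Rab3d promoter peak ranked 26th of all KLF1 peaks. Tmem205 has no row in the 4sU table, and no RNA level is given here for Swsap1 or Rab3d. In liver Tmem205, chosen after its values were seen, was at 70.9 FPKM in Nan/+ and 28.2 FPKM in wild type (q = 0.0115), per the authors' deposited table. The map of peaks around the members shows the Epor locus as the only one of the 3 with a peak inside it.

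**Figure D2:**
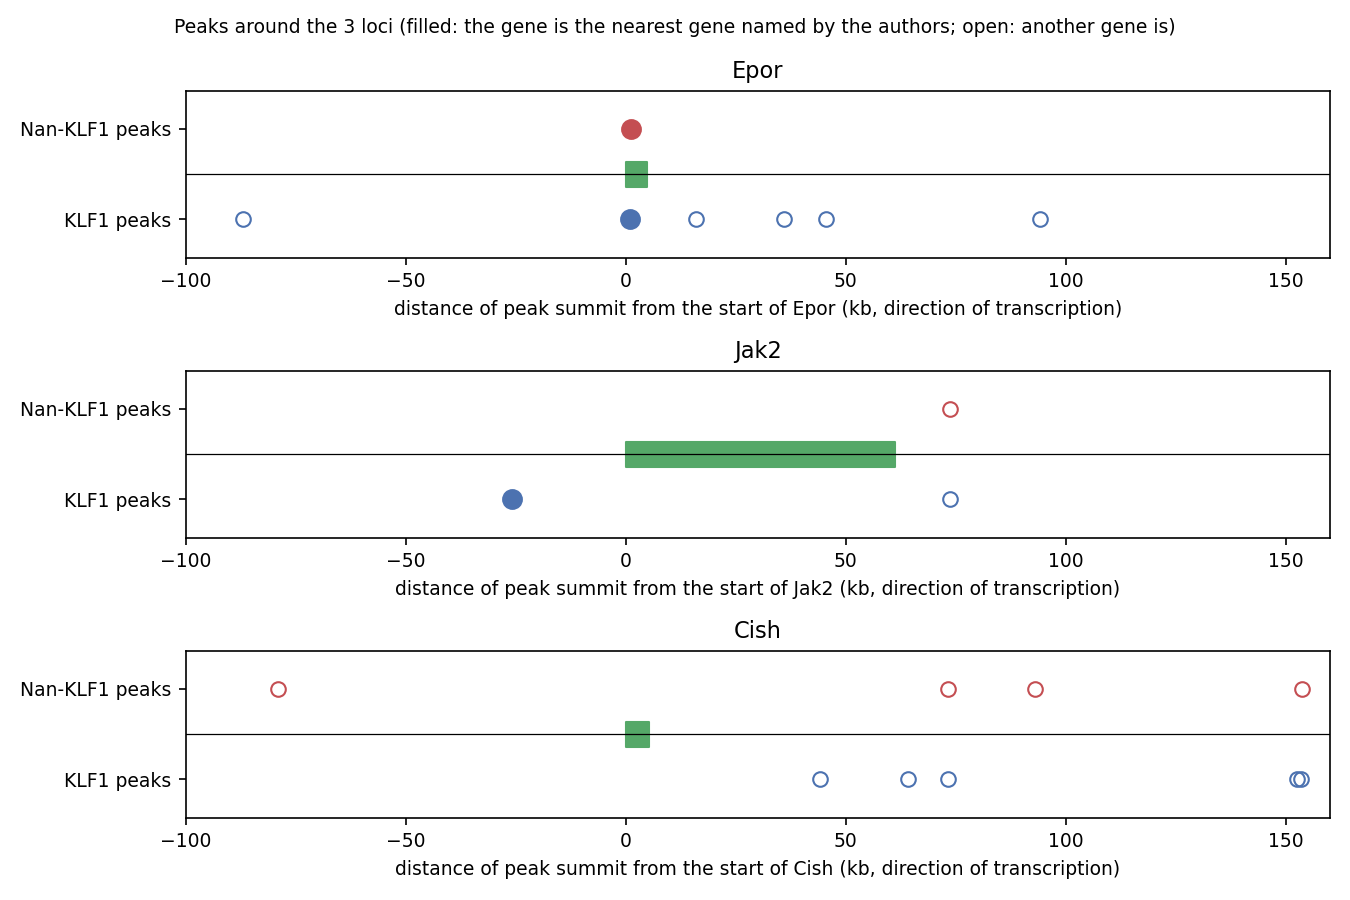
Summits of Nan-KLF1 peaks (upper row of points) and KLF1 peaks (lower row) around the loci of Epor, Jak2 and Cish (green), as distance in kb from the start of each locus along its direction of transcription. Filled points are peaks for which the authors name that gene as nearest; Epor has 1 in each list, Jak2 has 1 in the KLF1 list 25.9 kb upstream, and Cish has none.

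Jak2 encodes the kinase without which the receptor cannot signal. It lies on chromosome 19, 29326318 to 29387570 (mm9), on the plus strand per RefSeq. The authors' deposited table gave it 26.5 FPKM in K1-NanER, 6.23 FPKM in K1-ER, against 3.05 FPKM in K1. K1-NanER stood far above the other lines. In K1-NanER the log2 fold change over K1 was 3.12, an 8.69-fold rise (q = 0.00213), the 116th largest of the 1556 listed genes, per the authors' deposited table. In K1-ER the value was 1.03, a 2.04-fold difference that was not called (p = 0.0129, q = 0.128), per the authors' deposited table. The direct ratio of K1-NanER to K1-ER was 4.25, or 2.09 on the log2 scale, the 43rd highest of all listed genes and without a test. Among listed genes nascent Jak2 stood at percentile 65.2 in K1-NanER, 20.7 in K1-ER and 20.02 in K1.

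Epor and Jak2 thus lay on opposite sides in the direct ratio, and they also differ in locus length, which moves with that ratio over the whole table. The 312 shortest listed loci (at most 5.60 kb), which include Epor and Cish, had a median log2 ratio of K1-NanER to K1-ER of -0.89. The 311 longest (at least 53.9 kb), which include Jak2, had a median of 0.53. Of the called genes among these long loci 84.6% rose in K1-NanER and 73.5% in K1-ER. Among the short loci 40.1% of called genes rose in K1-NanER and 73.8% in K1-ER. The part of locus length in the ratios of Epor and Jak2 was not tested. The fusion RNA also differs in level: Esr1, whose ligand-binding domain is part of both fusions, was at 70.3 FPKM in K1-NanER, 136 FPKM in K1-ER, against 2.41 FPKM in K1, per the authors' deposited table, and its part in the ratios was not tested. Clones were compared with parental cells, so that clone and fusion cannot be told apart. Both comparisons share the same K1 libraries.

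No Nan-KLF1 peak names Jak2. The KLF1 peak that does lies at 29300188 to 29300625 on chromosome 19 (mm9), is classed as distal and has its summit 25.9 kb upstream of the locus. It is among the weaker peaks, with a fold enrichment of 43.2, which 84.7% of KLF1 peaks reached or exceeded, and it has no central motif, as 21.1% of KLF1 peaks do not. No Nan-KLF1 peak overlapped it.

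Insl6, a gene of the insulin and relaxin family and the next gene downstream of Jak2, was looked at after its values were seen. Its locus lies 8.27 kb beyond the end of Jak2. A promoter peak there was present in both lists, with summits 28 bp apart and fold enrichments of 107 for Nan-KLF1 and 137 for KLF1, and it is the Nan-KLF1 peak closest to Jak2, 12.3 kb from its end. The authors' deposited table gave Insl6 10.6 FPKM in K1-NanER (q = 0.00213), 3.19 FPKM in K1-ER (q = 0.0168) and the floor of 0.1 FPKM in K1. In liver it was at 8.01 FPKM in Nan/+ and 0.41 FPKM in wild type, a log2 fold change of 4.29 (q = 0.00244), per the authors' deposited table. Insl6 thus rose in each of the 3 comparisons, while Jak2 was called in K1-NanER, was not called in K1-ER and has no row for liver. The loci of Jak2 and Insl6 in the 4sU table do not overlap.

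Cish encodes a SOCS-family protein that STAT5 switches on and that binds the phosphorylated receptor. It lies on chromosome 9, 107199020 to 107204292 (mm9), on the plus strand per RefSeq. The authors' deposited table gave it 0.429 FPKM in K1-NanER, 1.83 FPKM in K1-ER, against 0.1 FPKM in K1. The value of 0.1 FPKM is shared by 101 genes in K1 and is read here as a floor that stands for 0, which the sources used here do not state, so no fold over K1 is given for Cish. In K1-ER the difference was called (q = 0.00213) and in K1-NanER it had a p of 1 and a q of 1, per the authors' deposited table. That p of 1 is shared by 42 genes in K1-NanER, 35 of which also stand at the floor in K1, with K1-NanER levels up to 1.31 FPKM. A p of 1 at such low levels does not show that Cish was alike in K1-NanER and K1. Nascent Cish was at percentile 2.22 of listed genes in K1-NanER, 6.33 in K1-ER and 3.25 in K1.

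No peak of either list names Cish. Within 300 kb of its locus there were 5 Nan-KLF1 and 6 KLF1 peaks, all given to other genes by the authors. Peaks of both lists name Cacna2d2, which was looked at after its values were seen. In liver it was at 2.04 FPKM in Nan/+ and 0.18 FPKM in wild type (q = 0.00244), per the authors' deposited table. The nearest Nan-KLF1 peak was 67.8 kb and the nearest KLF1 peak 38.5 kb from the locus.

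In fetal liver Cish was higher with 1 Nan allele. The authors' deposited table gave it 25.8 FPKM in Nan/+ and 6 FPKM in wild type, a log2 fold change of 2.11 (q = 0.00244), the 100th highest of the 793 listed genes. All genes of that table are called (100% of those listed, 75.4% higher and 24.6% lower), because it holds only genes whose q is 0.0498 or less and whose log2 fold change is 1 or more in size. Epor and Jak2 have no row in it and were not analysed in liver here, so nothing is known from it about smaller changes of either. In whole liver more RNA per cell and more cells of a type cannot be told apart.

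Markers of other cells moved in the same table, which holds none of 4 hepatocyte markers and 1 of 6 erythroid markers. That marker, Hbb-bh1, rose to 4399 FPKM in Nan/+, against 429 FPKM in wild type, per the authors' deposited table. Hbb-bh1 is a globin gene, and the part of the removal of globin RNA in its level was not tested. All 5 granulocyte markers rose, with a summed level of 2323 FPKM in Nan/+ and 383 FPKM in wild type, per the authors' deposited table. Of 6 macrophage symbols, in which Adgre1 and Emr1 name the same gene, 3 are listed. All 3 were higher (155 FPKM in Nan/+ and 65.7 FPKM in wild type, summed), per the authors' deposited table. Of 4 platelet lineage markers 2 are listed, both higher (635 FPKM and 250.4 FPKM, summed), per the authors' deposited table. All 4 muscle markers fell, with a sum of 1.51 FPKM in Nan/+ and 36.6 FPKM in wild type, and Xist, the RNA of the silenced X chromosome, was at 0.04 FPKM in Nan/+ and 25.1 FPKM in wild type, per the authors' deposited table. The labels give no sex, and the part of cell makeup or sex in the Cish difference was not tested. Of the 6 erythroid markers 5 are listed in the 4sU table, with a summed level of 604 FPKM in K1-NanER, of 4386 FPKM in K1-ER and of 174 FPKM in parental K1, per the authors' deposited table. Most of that sum is Hbb-bh1, an embryonic globin (418, 4174 and 123 FPKM in the same order), and Ermap (46.4, 85.6 and 21.3 FPKM) and Slc4a1 (1.43, 6.79 and 2.00 FPKM) were also highest in K1-ER, per the authors' deposited table. Alas2, the first enzyme of heme synthesis in red cells, was about equal in the lines with a fusion (26.0, 25.6 and 5.81 FPKM), and Tfrc was highest in K1-NanER (112, 93.7 and 21.1 FPKM), per the authors' deposited table. The part of these erythroid levels in the differences of Epor, Jak2 and Cish was not tested. No granulocyte, macrophage, hepatocyte or muscle marker is listed in the 4sU table. Of the platelet lineage markers 1 is listed there, Vwf. It was at 1.99 FPKM in K1-NanER (q = 0.0137), 2.88 FPKM in K1-ER, not called (q = 0.186), and 5.13 FPKM in K1, per the authors' deposited table.

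The promoters of the 3 genes are shown because they set the receptor gene, which both factors bind within the gene, beside the other members. They are the 250 bases before the RefSeq start, on build GRCm38.p6, 5′ to 3′ on the gene's own strand; capitals mark CACCC and CCNCNCCC, the KLF1-type elements, on either strand, where a match of the second that ends in CACCC also counts for the first. Epor lies at chr9:21963577-21963826 on the minus strand, Jak2 at chr19:29251553-29251802 on the plus strand and Cish at chr9:107296409-107296658 on the plus strand.
Epor: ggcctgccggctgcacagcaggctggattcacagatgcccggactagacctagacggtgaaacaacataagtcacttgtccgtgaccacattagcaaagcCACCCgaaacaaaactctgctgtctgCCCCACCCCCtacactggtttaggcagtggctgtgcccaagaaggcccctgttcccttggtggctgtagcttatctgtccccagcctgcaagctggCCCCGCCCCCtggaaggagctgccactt
Jak2: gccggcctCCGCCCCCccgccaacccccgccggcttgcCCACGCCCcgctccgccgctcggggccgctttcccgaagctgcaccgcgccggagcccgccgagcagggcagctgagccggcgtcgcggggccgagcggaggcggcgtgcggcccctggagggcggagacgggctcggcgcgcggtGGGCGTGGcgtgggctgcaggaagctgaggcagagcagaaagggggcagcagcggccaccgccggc
Cish: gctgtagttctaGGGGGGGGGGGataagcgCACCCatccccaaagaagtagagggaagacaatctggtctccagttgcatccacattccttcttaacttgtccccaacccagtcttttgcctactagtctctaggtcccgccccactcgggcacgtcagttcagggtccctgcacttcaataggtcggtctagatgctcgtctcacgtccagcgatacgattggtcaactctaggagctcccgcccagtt

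The Epor promoter held 2 matches to CACCC, starting 150 and 121 bases before the gene start, and 4 to CCNCNCCC in 2 overlapping pairs. One of those, 28 bases before the start, has the letters CCCCGCCC of the intronic peaks. It also held 1 GATAA on the opposite strand, 54 bases before the start; GATAA is the element of GATA factors. Neither peak reaches this window: in the coordinates of the 4sU table their near edges lay 758 bp (Nan-KLF1) and 620 bp (KLF1) inside the gene, and the RefSeq gene is 2 bp longer than that locus. The Jak2 promoter, with 80.8% G and C against 58.8% for Epor, 55.2% for Cish and a median of 52.4% over all promoters, held no CACCC and 3 CCNCNCCC, of which 2 read CCACGCCC. In Cish 1 CACCC started 220 bases and 1 GATAA 228 bases before the start, and 4 overlapping CCNCNCCC matches all lay in a single run of G. Matches of this kind are common, since among the 32851 promoter windows of 250 bases before to 50 after a start 57.5% held CACCC, 49.5% CCNCNCCC and 25.4% GATAA, on either strand.

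The Cish window had a feature that the other windows lacked, 2 matches to TTCNNNGAA, the element of STAT5, which reads the same on both strands. It is shown with the matches in capitals, from the first base of the RefSeq gene (chr9:107296659-107296678, GRCm38.p6, plus strand):
Cish, first 20 bases: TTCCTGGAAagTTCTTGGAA
Of all promoter windows 8.3% held at least 1 such match. The RefSeq gene is 853 bp longer than the Cish locus of the 4sU table, so these windows may not lie at the start used in that table. A match describes letters only, and binding of GATA factors or STAT5 was not measured here.

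Beyond the members, 66 other genes of the pathway were listed by role. The 4sU table holds 17 of them: 11 rose, 2 fell and 4 were not called in K1-ER, while 7 rose, 2 fell and 8 were not called in K1-NanER, per the authors' deposited table. Of all listed genes 49.4% were called in K1-ER and 75.7% in K1-NanER, so that 9 calls among 17 genes in K1-NanER lie below the share of the table. The median log2 fold change of the 17 genes was 1.62 in K1-ER, against 0.72 over all listed genes, and 0.93 in K1-NanER, against 1.04. The lists were drawn up with earlier results of these data known, the table holds only called genes, and a call in just 1 line is no test of K1-NanER against K1-ER.

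Among receptors, Csf2rb, the shared beta chain of the interleukin-3 and GM-CSF receptors, which also signals through JAK2, rose in both lines. It was at 14.6 FPKM in K1-NanER (q = 0.00213), 17.6 FPKM in K1-ER (q = 0.00213) and 2.74 FPKM in K1, per the authors' deposited table. Tfr2, a transferrin receptor that associates with the erythropoietin receptor, fell to 9.67 FPKM in K1-NanER (log2 fold change -1.78), with 22.8 FPKM in K1-ER, not called, and 33.3 FPKM in K1, per the authors' deposited table. No other gene of this group of 8 is listed, which leaves out both Stat5 genes.

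Of 16 feedback and negative regulators 5 are listed. All 5 were called in K1-ER, where 49.4% of all listed genes were, and 2 in K1-NanER, where 75.7% were. In K1-ER Cish, Inpp5d, Pias3 and Sh2b3 rose and Spred2 fell. Pias3, an inhibitor of STAT factors, was at 44.2 FPKM in K1-NanER, 24.3 FPKM in K1-ER, against 3.06 FPKM in K1, and Inpp5d, the lipid phosphatase SHIP1, at 10.2, 11.0 and 1.42 FPKM in the same order, per the authors' deposited table. Both rose in K1-NanER too, with log2 fold changes of 3.85 for Pias3 and 2.85 for Inpp5d, per the authors' deposited table. Sh2b3 (LNK), an adaptor that restrains JAK2, was at 65.0 FPKM in K1-NanER, not called (q = 0.0729), 86.5 FPKM in K1-ER (q = 0.00669) and 35.2 FPKM in K1, per the authors' deposited table. Spred2, an inhibitor of the Ras to ERK cascade, fell to 1.30 FPKM in K1-ER (q = 0.0487), with 5.84 FPKM in K1-NanER, not called, and 6.05 FPKM in K1, per the authors' deposited table.

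Of 22 adaptors and kinases downstream 5 are listed. Irs2, a docking protein for PI3-kinase, rose in both lines, with 233 FPKM in K1-NanER, 333 FPKM in K1-ER, against 37.2 FPKM in K1, per the authors' deposited table. The kinase Akt1 was called in K1-ER alone (45.6 FPKM in K1-NanER, 62.5 FPKM in K1-ER, against 23.9 FPKM in K1), as was the docking protein Gab2, which fell (3.50, 1.65 and 5.22 FPKM in the same order), per the authors' deposited table. The Ras activator Sos1 and Pik3r3, a regulatory subunit of PI3-kinase, were called in K1-NanER alone, with log2 fold changes of 1.43 for Sos1 and 1.17 for Pik3r3, per the authors' deposited table. Each line thus had 3 calls among these 5 genes. Of all listed genes 75.7% were called in K1-NanER and 49.4% in K1-ER.

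Of 23 targets of the signal 6 are listed, and 5 of them rose in K1-ER, where 37.9% of all listed genes did, and 1 in K1-NanER, where 47.4% did. Pim1, a survival kinase induced by STAT5, was at 215 FPKM in K1-NanER, not called (q = 0.609), 555 FPKM in K1-ER (q = 0.00213) and 166 FPKM in K1, per the authors' deposited table. This order of levels is that of Epor, and also that of Csf2rb, Sh2b3, Inpp5d, Irs2, Akt1, Ccnd3, Id1 and Cish. For Epor, Pim1, Sh2b3, Akt1, Ccnd3, Id1 and Cish K1-NanER was not called against K1, so that part of the order is uncertain. The other listed pathway genes had other orders. Jak2, Pias3, Tfrc, Sos1 and Pik3r3 were highest in K1-NanER, and Fam132b and Trib3 were lowest there. Tfr2, Gab2 and Spred2 were highest in K1. The share of all listed genes with the order of Epor was not counted. A link between the levels of Epor and Pim1 was not tested. Ccnd3, a cyclin that sets the number of divisions of red cell precursors, Id1, an inhibitor of bHLH factors, and Fam132b, the hormone erythroferrone that erythropoietin induces, rose in K1-ER by 2.95, 2.25 and 1.62 on the log2 scale and were not called in K1-NanER, per the authors' deposited table. Tfrc, the transferrin receptor, rose in both, by 2.41 in K1-NanER and 2.15 in K1-ER, per the authors' deposited table. Trib3, an inhibitor of AKT, fell in K1-NanER (16.4 FPKM, against 55.4 FPKM in K1) and was not called in K1-ER (60.1 FPKM), per the authors' deposited table.

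**Figure D3:**
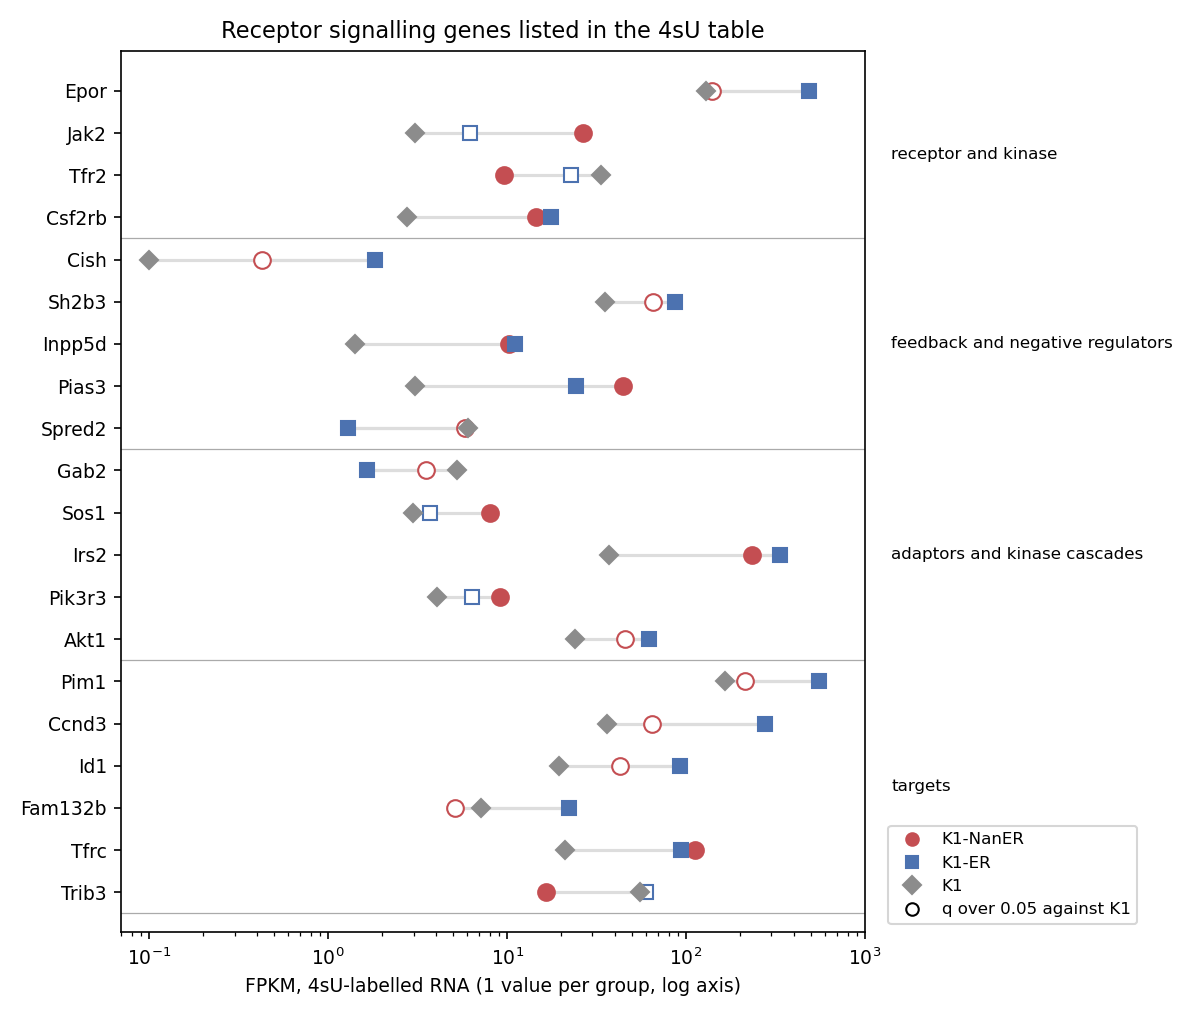
Levels (FPKM, log axis, 1 value per group, no error available) in K1-NanER (circles), K1-ER (squares) and K1 (diamonds) of the 20 receptor signalling genes listed in the 4sU table, by role; open symbols were not called against K1 (q over 0.05). Of the 20 genes 10 were called in K1-NanER and 15 in K1-ER, where 75.7% and 49.4% of all listed genes were called. Each listed gene was called in K1-NanER, in K1-ER or in both. The K1 value of Cish is the floor of 0.1 FPKM.

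Peaks near these genes were more frequent for KLF1. Of the 20 genes with a row in the 4sU table, members included, 8 (40.0%) were the nearest gene of a Nan-KLF1 peak and 15 (75.0%) of a KLF1 peak, beside 26.5% and 45.8% of all genes of that table. Over the whole list of 69 pathway genes the shares were 27.5% for Nan-KLF1 and 49.3% for KLF1, close to those of the table. Pim1 had 3 Nan-KLF1 peaks and 6 KLF1 peaks, and its KLF1 promoter peak, with a fold enrichment of 619, ranked 34th in that list. Ccnd3 had 4 peaks in each list. The KLF1 list is the longer one, with 5326 peaks beside 2758, and the shares were not tested.

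The liver table holds 4 of the 66 other genes, of which 2 rose and 2 fell, in a table where every gene is called, 75.4% as higher and 24.6% as lower. Csf2rb was at 9.10 FPKM in Nan/+ and 4.20 FPKM in wild type (log2 fold change 1.11, q = 0.0182), and Id1 at 43.1 FPKM in Nan/+ and 18.4 FPKM in wild type (log2 fold change 1.23, q = 0.00902), per the authors' deposited table. Fam132b fell to 1.06 FPKM in Nan/+, against 4.99 FPKM in wild type (log2 fold change -2.24, q = 0.00244), per the authors' deposited table. Lmo2, a partner of the erythroid factor TAL1, fell to 89.9 FPKM in Nan/+, against 180.8 FPKM in wild type (log2 fold change -1.01, q = 0.0438), per the authors' deposited table. Cish and Fam132b are both known to be induced through the receptor by STAT5, and they moved in opposite directions in these livers. Receptor signalling itself was not measured in the livers, and the part of cell makeup in either change was not tested.

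**Figure D4:**
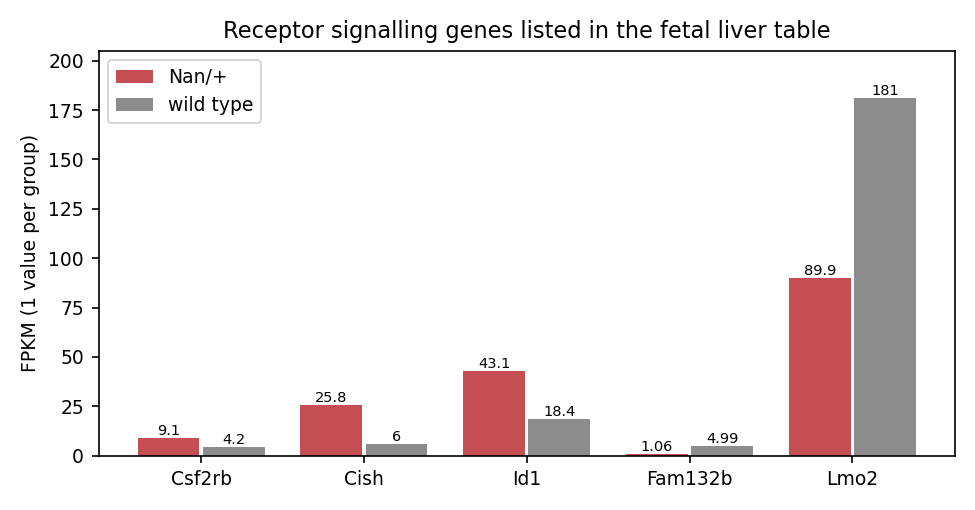
Levels (FPKM, 1 value per group, no error available) in Nan/+ and wild-type fetal liver of the 5 receptor signalling genes listed in the liver table. Csf2rb, Cish and Id1 are higher in Nan/+ (25.8 against 6 FPKM for Cish), and Fam132b and Lmo2 are lower (1.06 against 4.99 FPKM for Fam132b).

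The listed genes most like each member were found by the distance between log2 fold changes over K1 in the 2 lines, that is over 2 values per gene that share the K1 libraries. For Epor these were Mex3d, an RNA-binding protein, at a distance of 0.12, Slc25a38, the mitochondrial glycine carrier of heme synthesis, at 0.13, and Mafk, the small Maf partner of NF-E2, at 0.14. Slc25a38 was at 67.7 FPKM in K1-NanER, 208 FPKM in K1-ER, against 59.4 FPKM in K1, and Mafk at 117 FPKM, 423 FPKM and 118 FPKM in the same order, per the authors' deposited table. For Jak2 they were Zfp654, Arid4a and Kifc2, farther away at 0.23, 0.28 and 0.33, of which Kifc2, a kinesin, was at 131 FPKM in K1-NanER, 25.4 FPKM in K1-ER, against 15.5 FPKM in K1, per the authors' deposited table. For Cish they were Nfe2, an erythroid transcription factor, Bhlha15 and 4931417G12Rik, at 0.18, 0.26 and 0.26, but the pattern of Cish rests on the floor value in K1. Nfe2 and Bhlha15 were called in K1-NanER as well as in K1-ER, unlike Cish, and 4931417G12Rik is at the same floor in K1. Of the 1556 listed genes 299 (19.2%) rose in K1-ER without a call in K1-NanER, as Epor did, and 448 (28.8%) rose in K1-NanER without a call in K1-ER, as Jak2 did.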

How the data were processed

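Nascent RNA, fetal liver RNA and ChIP of mouse erythroid samples were used as the authors' processed tables. Per the submitters' processing notes, TopHat2 2.0.10, MACS 1.4.2 and build mm9 were used; the program behind levels and q values is not given in the sources used here. The authors deposited FPKM as 1 value per group, with a log2 fold change of the test group over its reference and the p-value and q-value of each comparison. The smallest deposited p-value is 5e-05. Each deposited peak carries a fold enrichment (ratio of ChIP over input), a rank score, a genomic class, a nearest gene within 300 kb and a central motif. Depth is unknown, since no counts are given.

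Own steps (Python 3.11.15, pandas 2.3.3, numpy 2.4.6, matplotlib 3.10.9) were look-ups by symbol, ratios of FPKM columns, peak overlaps of at least 1 bp and motif searches, the last 2 tested on simulated data. No fit was made and calls are the authors' (q at most 0.05). Strand, neighbours and promoter sequences are from RefSeq (GRCm38.p6), in which all 3 members matched; gene starts are printed 1 higher than deposited, and no coordinate was converted between builds. Named by rule are the 3 members, genes of a pathway list with a row, and the 3 genes nearest to each member in log2 fold change; cell markers and Esr1 are named as checks, and genes of neighbouring peaks and list genes with peaks but no row were chosen after their values were seen. Members and lists were chosen with earlier results of these data known. Alternatives were pseudocounts of 1 and 0.1 FPKM, a q of 0.01, a minimum of 1 FPKM, stronger peaks, peaks within 50 kb and stricter overlap. The labels do not say whether the K1 libraries came from separate cultures, or livers from separate litters; p-values measure only the spread between these samples.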

Additional observations from a re-analysis of the deposited data

How the results depend on the processing

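The members' calls were the same at a q of at most 0.01. Pseudocounts of 1 and 0.1 FPKM left the direction of the fold changes of Epor and Jak2 over K1 and of liver Cish as it was; they cannot move the authors' q, and were not applied to the nascent RNA change of Cish over K1. The untested log2 ratio of K1-NanER to K1-ER was 1.93 for Jak2 and -0.99 for Cish with 1 FPKM added, and -1.87 for Cish with 0.1 FPKM added; a constant weighs most on low levels. At a q of at most 0.01 the liver held 3 called genes of the pathway list. Counting peaks within 50 kb of a locus gave 4 KLF1 peaks for Epor, 2 for Jak2 and 1 for Cish, and 1 Nan-KLF1 peak for Jak2. Of KLF1 peaks at or above the median fold enrichment of their list, 0 name Jak2. In the authors' own intersection, an alternative added after seeing the data, 0 of the members' KLF1 peaks are shared. Among the other pathway genes and Insl6, 6 calls were lost at a q of at most 0.01: Spred2, Gab2 and Insl6 in K1-ER, Pik3r3 in K1-NanER, and Csf2rb and Lmo2 in liver. The liver q of Tmem205, 0.0115, is above 0.01 too. No paired analysis was possible because the deposited columns hold 1 value per group, and for the same reason no replicate could be left out.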

Other observations

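Several genes of the pathway list have peaks but no row in either RNA table, so that their RNA was not compared here. Gata1, the master regulator of red cell genes and a co-regulator of Epor, had a promoter peak in both lists, with fold enrichments of 302 for Nan-KLF1 and 726 for KLF1. Stat5a, which carries the signal to the nucleus, had 1 Nan-KLF1 peak and 3 KLF1 peaks, and the Nan-KLF1 peak, downstream of the gene with a fold enrichment of 253, overlapped a KLF1 peak. Zfpm1, the GATA1 partner FOG1, had 7 Nan-KLF1 and 4 KLF1 peaks, more than any other gene of the list in the Nan-KLF1 list, and all 4 KLF1 peaks overlapped a Nan-KLF1 peak. Foxo3, a transcription factor that the signal holds out of the nucleus, had 3 KLF1 peaks and no Nan-KLF1 peak, the strongest at its promoter with a fold enrichment of 458.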
